A study of Homo sapiens with 6 samples.

Results

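Mitosis is driven by a set of genes whose transcripts accumulate late in the cell cycle and are lost again after division. Cyclin-dependent kinase CDK1 and its cyclins start the process, motor proteins build the spindle, kinetochore proteins tie each chromosome to it, a checkpoint holds anaphase back until all chromosomes are attached, and a last group of proteins cleaves the cell. Many of these genes are switched together by the MuvB protein complex, which represses them with DREAM in resting cells and activates them with B-MYB and FOXM1 in dividing cells. The genes considered here were 46 mitotic genes chosen by symbol for their known roles. Each of the 46 had its own row among the 26899 genes of the deposited read count table, and each passed the low-count filter, which left 15299 genes for testing. They were divided by role into 10 genes of mitotic entry, 10 of the spindle, 14 of the kinetochore and its checkpoint and 12 of cytokinesis.

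The libraries came from HK-2, an established human kidney cell line, of proximal tubule origin, transformed with human papillomavirus 16, whose E6 and E7 proteins disable p53 and RB. Of the 6 libraries, 3 were labelled wild type, with shCtrl as their short name, and 3 were labelled ANXA2 knockdown, with shANXA2 as theirs. All cells were grown in serum-containing medium, plasmids were delivered with a lipid reagent, and polyadenylated RNA was sequenced as directional libraries. Nothing in the labels says that replicates came from separate cultures, so p-values measure only the spread between these libraries. No hairpin sequence, time after transfection or batch is given in the sources used here. Of the tubule markers, PAX8, GGT1 and DPP4 had CPM values (read counts scaled to the size of each library) of at least 345, 208 and 110 in every library, whereas LRP2, CUBN, AQP1, ANPEP, HNF4A, SLC34A1 and SLC5A2, which define the proximal tubule, stayed at or below 0.908 CPM. MME, another tubule gene, lay between 4.09 and 8.12 CPM. Of the epithelial markers, KRT8 and KRT18 were at 453 CPM or more and EPCAM at 57.8 CPM or more, whereas CDH1, the gene of E-cadherin, was at 0.0624 to 0.554 CPM. Markers of other cell types were low. The summed level of leukocyte markers was 4.53 to 6.58 CPM in the control and 4.3 to 8.72 CPM in the knockdown libraries, over 6 of 10 genes. Fibroblast markers summed to 32.6 to 41.6 and 31.7 to 32.6 CPM over 6 of 8 genes, most of it LUM, with COL3A1 and DCN at or below 0.248 CPM, and endothelial markers to at most 0.388 CPM over 3 of 6 genes. The other genes of those lists were not analysed here, and the part of such cells in the results was not tested.

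ANXA2 (ENSG00000182718.16, GRCh38 chr15:60347134-60402883, minus strand) encodes annexin A2, a calcium-dependent membrane-binding protein, and is the gene named as target. Its level was 1658, 1461 and 1675 CPM in control replicates 1, 2 and 3, and 1538, 1561 and 1519 CPM in knockdown replicates 1, 2 and 3. The groups overlapped. A two-sided exact permutation test gave p = 0.4, and with 3 against 3 libraries no such test can go below 0.1. The edgeR log2 fold change was -0.05 with a 95% interval from -0.223 to 0.115. Since ANXA2 was not shown to be lower, the groups are called the libraries labelled control and labelled knockdown, and every difference is one between labels.

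In order to show the promoter elements that many of these genes share, stretches of 4 members are given first, 1 for each step, from 100 bases before to 50 bases after the RefSeq start site (GRCh38.p14). In each step the member with the smallest unadjusted p that held both motifs within this stretch was taken. Capitals mark TTTGAA or its reverse complement TTCAAA, which is the core of the cell cycle genes homology region (CHR) bound by MuvB, and CCAAT or its reverse complement ATTGG, the site of the factor NF-Y.

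CCNB2 (mitotic entry, chr15:59105046-59105195, plus strand): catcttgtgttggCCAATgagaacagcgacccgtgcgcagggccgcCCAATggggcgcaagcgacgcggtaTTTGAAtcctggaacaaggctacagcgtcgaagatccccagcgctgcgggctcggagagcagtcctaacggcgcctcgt
NUSAP1 (spindle, chr15:41332781-41332930, plus strand): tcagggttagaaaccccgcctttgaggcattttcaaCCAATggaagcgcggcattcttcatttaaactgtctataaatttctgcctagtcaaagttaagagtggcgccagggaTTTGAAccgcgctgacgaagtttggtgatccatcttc
SPC25 (kinetochore, chr2:168890381-168890530, minus strand): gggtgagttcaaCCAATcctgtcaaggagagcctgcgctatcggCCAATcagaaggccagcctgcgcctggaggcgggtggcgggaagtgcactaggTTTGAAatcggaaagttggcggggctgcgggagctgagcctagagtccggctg
KIF14 (cytokinesis, chr1:200620702-200620851, minus strand): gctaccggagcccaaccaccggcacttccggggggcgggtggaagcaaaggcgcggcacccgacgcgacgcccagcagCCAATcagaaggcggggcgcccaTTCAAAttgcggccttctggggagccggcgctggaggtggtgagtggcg

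Counting the first transcribed base as position 1, the CHR core began at position -29 in CCNB2, 14 in NUSAP1, -3 in SPC25 and 2 in KIF14. The CCAAT box lay before it in all 4, at -54 and -87 in CCNB2, -64 in NUSAP1, -56 and -88 in SPC25 and -22 in KIF14. Promoters of 39 of the 46 members were found in the RefSeq table, which covers 250 bases before to 50 after the start. The CHR core was present on either strand in 29 of these 39 (74.4%), against 954 of 10207 promoters of tested genes (9.3%). For CCAAT the numbers were 32 of 39 (82.1%) and 3732 of 10207 (36.6%), and both motifs occurred in 25 members (64.1%) and in 4.1% of all promoters. By step, the CHR core was found in 6 of 9 entry genes, 7 of 9 spindle genes, 8 of 11 kinetochore genes and 8 of 10 cytokinesis genes. CCNA2, CCNB1, NEK2, KIF2C, CKAP2, CENPE, BUB1, PTTG1, AURKB and KIF20A held no exact match in this window. Among 36 DNA replication genes with a promoter, 1 (2.8%) held the CHR core and 20 (55.6%) held CCAAT, and among 60 other mitotic genes 30 (50%) and 35 (58.3%) did. A match of letters is a description of the sequence and was not tested for binding.

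In the libraries labelled knockdown all 46 members had an edgeR estimate below 0, compared with 51% of all 15299 tested genes. Their median log2 fold change was -0.33, with the lowest value of -0.97 for KIF14 and the highest of -0.04 for CDC20, while the median over all tested genes was -0.006. Of the members, 0 passed a Benjamini-Hochberg adjusted p of 0.05, as did 0% of all tested genes (1251 genes had an unadjusted p under 0.05), and the smallest adjusted p of a member was 0.583. Without the low-count filter, 6 members passed (ASPM, CCNA2, CENPF, CEP55, KIF14 and NUSAP1), against 0.19% of 26899 genes that passed with a lower level in that fit. Its median total degrees of freedom were 107600, against 9.234 with the filter, far more than 6 libraries supply. CENPF passed there although its groups overlapped and its unadjusted edgeR p with the filter was 0.0994. An unadjusted p under 0.05 with a lower level was found for 21 members (45.7%), against 4.32% of the tested genes. The 3 libraries labelled knockdown lay wholly below the 3 labelled control for 19 members (41.3%), against 7.7% of the tested genes. The opposite separation occurred for 0 members and for 1214 of the 15299 tested genes. The count of members separated downwards was 29 without control replicate 1 (background 15.7%) and 33 without knockdown replicate 3 (background 14.8%). The members were proposed with earlier results of these data known, so these counts describe the set and are no independent test of it. In bulk RNA, fewer cells in mitosis and less of each transcript per mitotic cell cannot be told apart. The members held between 55 reads (CENPE in 1 library) and 14088 reads (CDC20 in 1 library), in libraries of 24231267 to 34561675 counted reads.

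**Figure D1:**
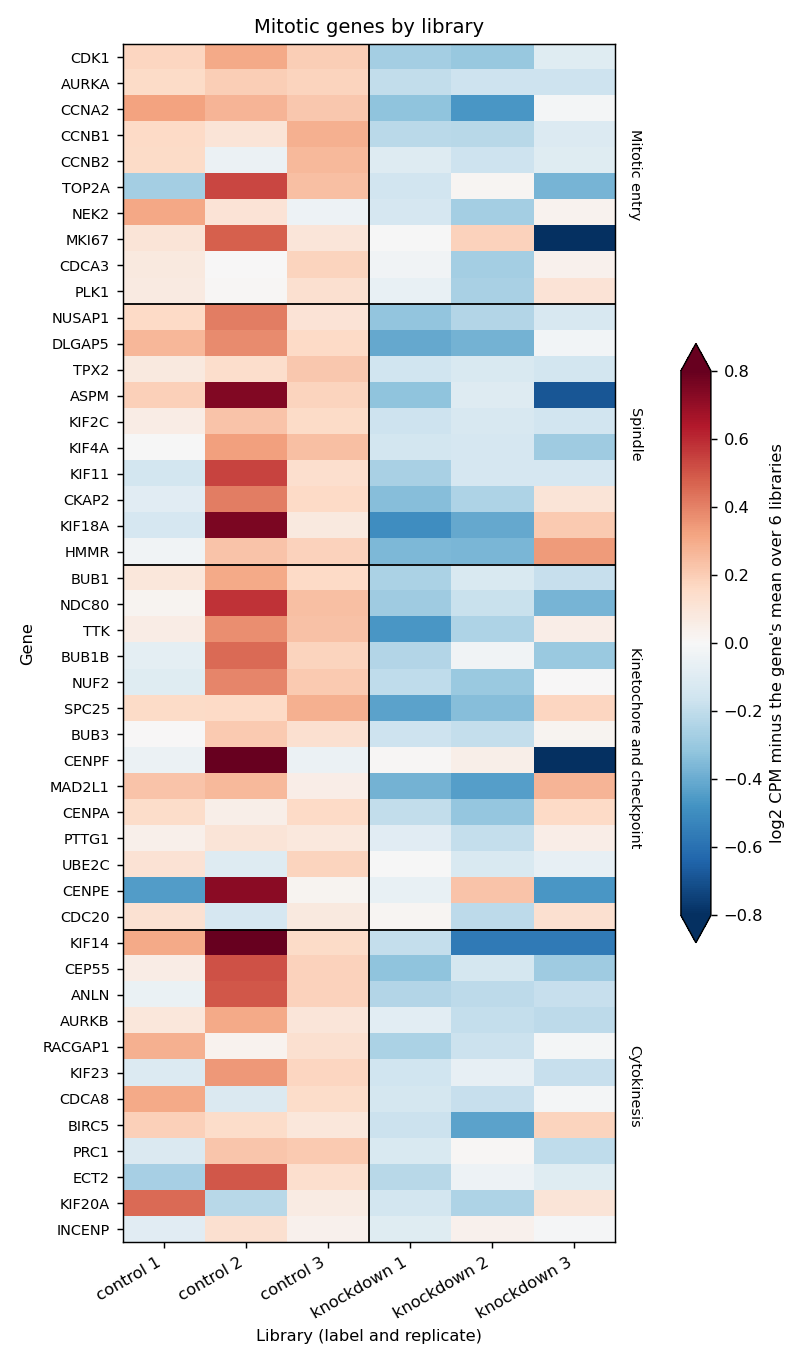
Heat map of the 46 mitotic genes (rows, by step and then by unadjusted p) in the 6 libraries (columns), with colour giving log2 CPM minus the mean of that gene over the 6 libraries and colours saturating at 0.8. The median of the members was 0.079, 0.285 and 0.16 in control replicates 1, 2 and 3 and -0.191, -0.193 and -0.098 in knockdown replicates 1, 2 and 3.

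The libraries within a label differed in how far the members were displaced. Control replicate 2 held the highest value of the 6 libraries for 29 of the 46 members, control replicates 1 and 3 for 6 and 7, and knockdown replicate 3 for 4. Among all tested genes the highest value fell in control replicates 1, 2 and 3 for 20.1%, 25.7% and 8.88%. For knockdown replicate 3 that share was 20.6%. The lowest value was found in knockdown replicates 1, 2 and 3 for 15, 18 and 12 members, and in control replicate 1 for 1. Among all tested genes the lowest value fell in knockdown replicates 1, 2 and 3 for 11.1%, 13.6% and 19.8%. For control replicate 1 that share was 21%. Together the members took 0.428%, 0.464% and 0.442% of all reads in the control libraries and 0.355%, 0.348% and 0.38% in the knockdown libraries, so their summed level did not overlap between the labels. The share of mitochondrial reads did not overlap either, at 6.5%, 6.01% and 6.17% in the control and 5.58%, 5.6% and 5.26% in the knockdown libraries, and its part in the result was not tested. Over all genes the libraries did not group by label, since log2 CPM of control replicate 3 correlated more closely with knockdown replicates 1 and 2 (Pearson's r across genes 0.9932 and 0.9935) than with control replicates 1 and 2 (0.9821 and 0.9893). When 1 library was left out, the estimates of 26 of the 46 members moved by over 1.5 times at least once, 16 of them without control replicate 2, 12 without knockdown replicate 2 and 11 without knockdown replicate 3. Such a count was not made over all tested genes. Within groups the members were about as reproducible as other genes, with a median SD of 0.170 on the log2 scale compared with 0.164 for all tested genes at 5 CPM or more.

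**Figure D2:**
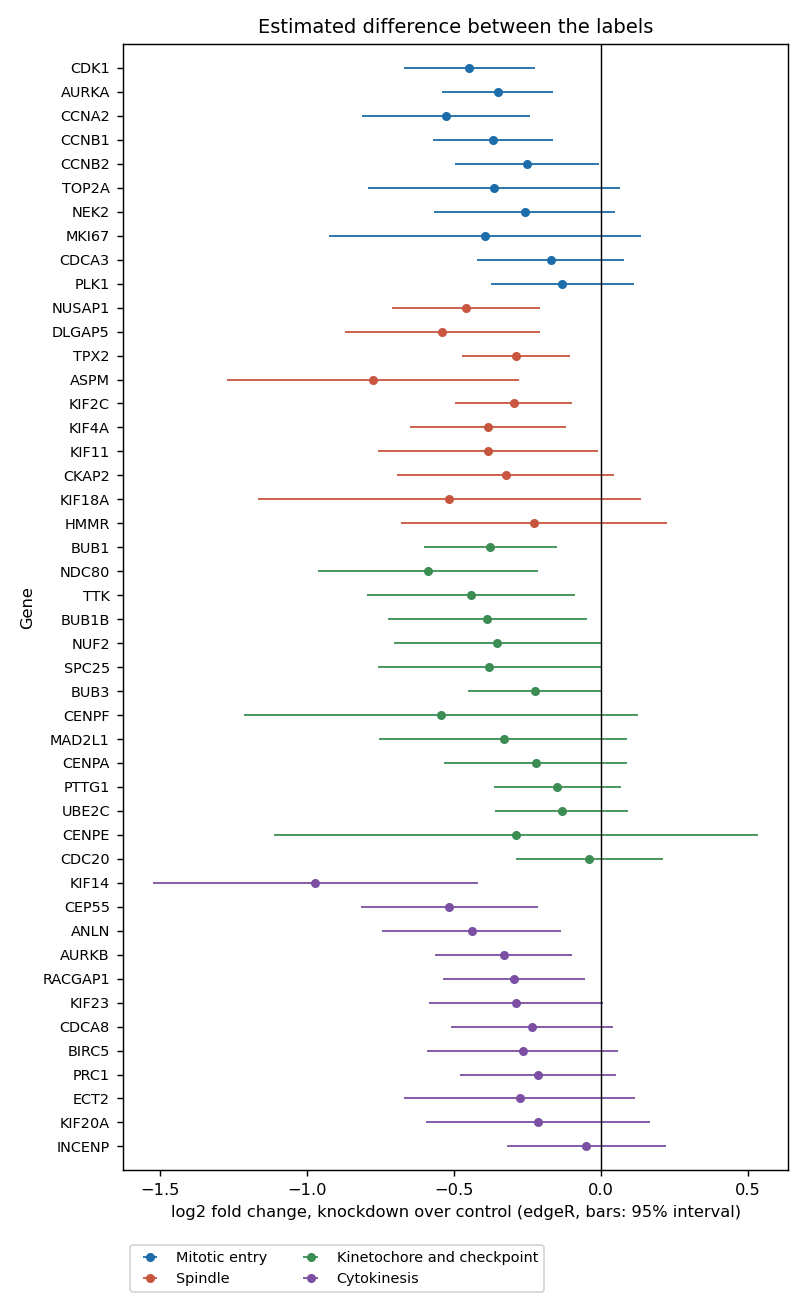
edgeR log2 fold change of each mitotic gene, knockdown over control (points), with its 95% interval (bars) and colours for the 4 steps. All 46 points lie to the left of 0, from -0.97 (KIF14) to -0.04 (CDC20), and the intervals of 21 genes do not reach 0.

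For mitotic entry, the 10 genes had a median of -0.36 on the log2 scale. An unadjusted p under 0.05 was found for 5 (50%), against 4.32% of all tested genes lower at that threshold. The groups did not overlap for those same 5 (against 7.7%), which were CDK1, AURKA, CCNA2, CCNB1 and CCNB2. CDK1 encodes the kinase that starts mitosis. It was present at 94.94, 103.7 and 96.4 CPM in the control libraries and at 69.63, 68.17 and 78.45 CPM in the knockdown libraries, so every knockdown value was below every control value. Its estimate was -0.45 (log2, SE 0.0991, edgeR adjusted p 0.583). AURKA, the kinase that matures centrosomes, had the smallest spread within groups relative to its mean. It measured 152.7, 157.6 and 155.8 CPM in the control and 120.2, 122.8 and 122.4 CPM in the knockdown libraries. That is an estimate of -0.35 (log2, SE 0.0838, edgeR adjusted p 0.599). CCNA2 encodes cyclin A2, which partners CDK2 in S phase and CDK1 in G2. Its values were 86.83, 83.76 and 80.7 CPM against 55.47, 50.12 and 68.68 CPM, with no overlap and an estimate of -0.53 (log2, SE 0.127, edgeR adjusted p 0.599).

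The mitotic cyclins B1 and B2 bind CDK1 directly. CCNB1 averaged 228.6 ± 15 CPM in the control and 177.1 ± 7.81 CPM in the knockdown libraries (SD, n = 3), a log2 fold change of -0.37, and CCNB2 averaged 64.55 ± 6.85 and 54.16 ± 1.46 CPM (SD, n = 3), a log2 fold change of -0.25. PLK1, the polo-like kinase that acts with CDK1 at entry and on kinetochores, was the entry gene with the estimate nearest to 0. It had 228.2, 218.4 and 237.9 CPM in the control and 208.6, 181.7 and 234.5 CPM in the knockdown libraries, which overlapped, and its log2 fold change was -0.13 (95% interval -0.375 to 0.112), with -0.039 when knockdown replicate 2 was left out and -0.224 when knockdown replicate 3 was. CDCA3 and NEK2 had log2 fold changes of -0.17 and -0.26 with overlapping groups. MKI67, the gene of the Ki-67 proliferation antigen, and TOP2A, the topoisomerase that untangles chromosomes, were the entry genes with the widest spread between replicates. For MKI67 the libraries gave 118.9, 154.6 and 118.4 CPM against 110.5, 126.0 and 61.2 CPM. TOP2A gave 104.4, 183.4 and 149.5 CPM against 113.7, 128.0 and 97.77 CPM. In both genes control replicate 2 was the highest library and knockdown replicate 3 the lowest, and the differences of -0.40 and -0.37 on the log2 scale had intervals that included 0. Without knockdown replicate 3 the MKI67 estimate was -0.14, and without control replicate 2 those of MKI67 and TOP2A were -0.26 and -0.16.

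**Figure D3:**
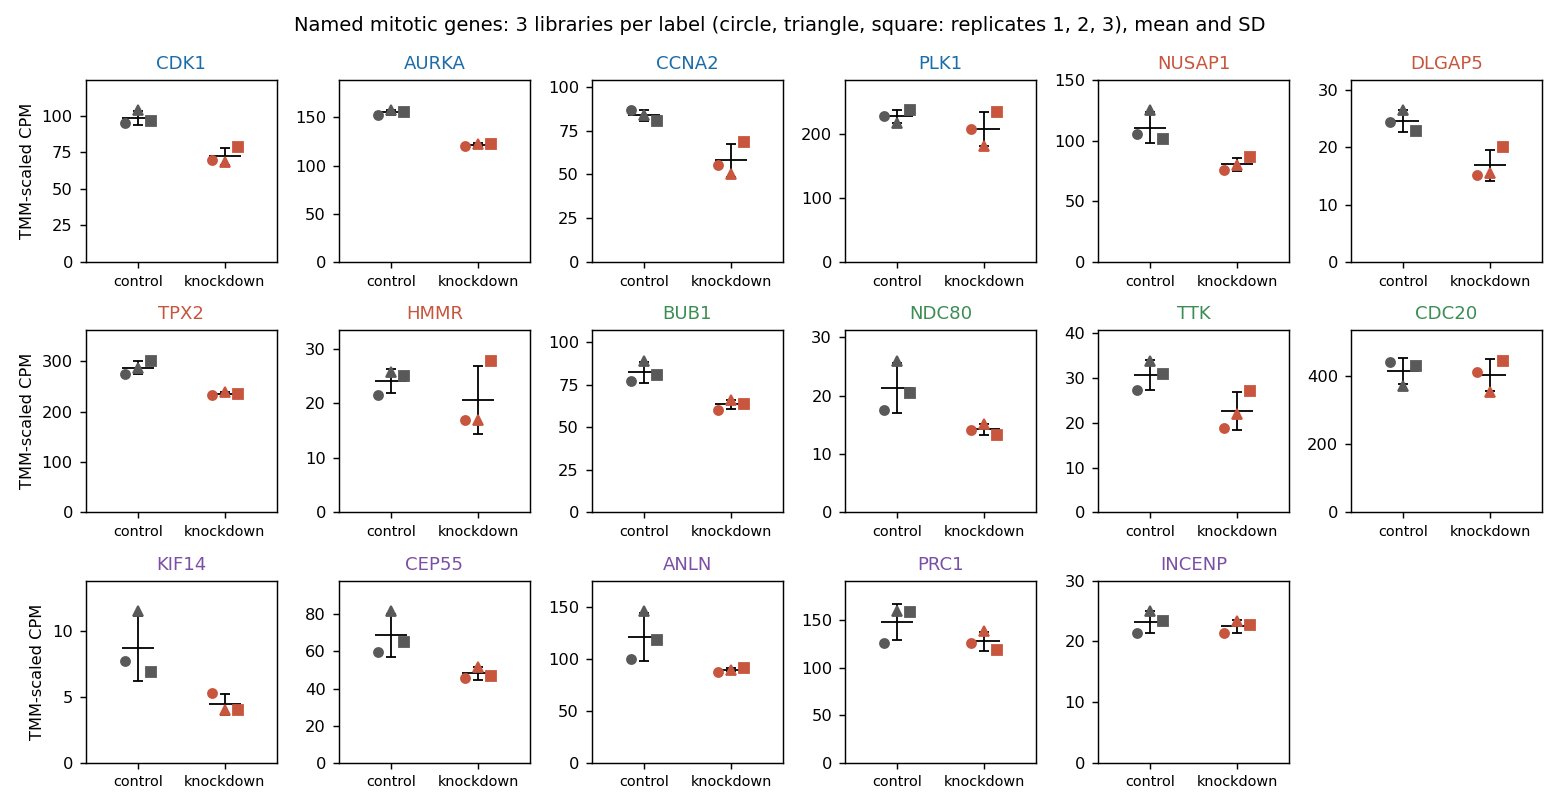
TMM-scaled CPM of 17 mitotic genes in each library, with replicates as separate symbols, the mean as a horizontal line and the SD as a bar, and each vertical axis starting at 0. AURKA and TPX2 show narrow, separated groups (152.7 to 157.6 against 120.2 to 122.8 CPM for AURKA), whereas PLK1, HMMR, CDC20, PRC1 and INCENP overlap.

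Among the spindle genes the median log2 fold change was -0.385. Of the 10, 7 (70%) had an unadjusted p under 0.05, against 4.32% of all tested genes lower at that threshold. The labels were separated for 6 (60%), against 7.7% of all tested genes. NUSAP1 encodes a microtubule-bundling protein of the spindle. Its level was 105.2, 125.3 and 101.8 CPM in the control and 75.49, 79.98 and 86.17 CPM in the knockdown libraries, and the groups did not overlap. The estimate was -0.46 (log2, SE 0.112, edgeR adjusted p 0.599). Its exons overlap another protein-coding gene model over 81.4% of their length in GENCODE release 44. That model had no row among the deposited counts, and how reads in this stretch were assigned is uncertain. DLGAP5, also known as HURP, stabilises kinetochore fibres. It showed 24.43, 26.49 and 22.76 CPM against 15.18, 15.51 and 20.02 CPM, again without overlap, and an estimate of -0.54 (log2, SE 0.148). TPX2, which activates AURKA on the spindle and nucleates microtubules, was measured most precisely of the spindle genes. It reached 274.5, 286.7 and 301.6 CPM in the control and 232.4, 239.1 and 234.4 CPM in the knockdown libraries, without overlap, and its difference was -0.29 on the log2 scale (SE 0.082).

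Kinesins are the motors of the spindle. KIF11 encodes the kinesin that pushes the poles apart, KIF4A a motor of chromosome arms and the central spindle, KIF2C a microtubule depolymerase and KIF18A a motor that dampens chromosome movement. KIF2C and KIF4A were separated between the labels, with log2 fold changes of -0.30 and -0.385, whereas KIF11 and KIF18A overlapped at -0.385 and -0.52. Without control replicate 2 the estimates of KIF11 and KIF18A were -0.18 and -0.19. KIF4A has a near-identical intronless copy, KIF4B, which held 0 reads in the control and 4 in the knockdown libraries. ASPM, which focuses spindle poles, had 12.95, 19.18 and 12.81 CPM in the control and 8.938, 10.48 and 6.823 CPM in the knockdown libraries. The groups did not overlap, and the estimate of -0.78 (log2, SE 0.221) was the lowest of the spindle genes. CKAP2 and HMMR, both microtubule-binding proteins, overlapped between the labels. HMMR had 21.48, 25.73 and 24.94 CPM against 17.0, 16.9 and 27.81 CPM, so knockdown replicate 3 was the highest of all 6 libraries, and its estimate of -0.23 had a 95% interval from -0.681 to 0.226. Leaving out knockdown replicate 3 gave -0.504 for HMMR, and leaving out knockdown replicate 2 gave -0.101.

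The 14 kinetochore and checkpoint genes had a median of -0.34 on the log2 scale. Of them, 4 (28.6%) lay below an unadjusted p of 0.05, against 4.32% of all tested genes lower at that threshold. Separation between the labels was found for 3 (21.4%), against 7.7% of all tested genes. The microtubule-binding Ndc80 complex was represented by NDC80, NUF2 and SPC25, with log2 fold changes of -0.59, -0.35 and -0.38. NDC80 measured 17.55, 26.03 and 20.51 CPM in the control and 14.15, 15.23 and 13.27 CPM in the knockdown libraries, with no overlap (SE 0.166, edgeR adjusted p 0.599). For NUF2 and SPC25 the only knockdown library that reached into the control range was replicate 3, at 22.24 CPM of NUF2 and 28.82 CPM of SPC25.

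The checkpoint kinases BUB1 and TTK, the latter also called MPS1, were both separated. BUB1 had 77.11, 89.36 and 80.9 CPM in the control and 60.51, 66.32 and 63.66 CPM in the knockdown libraries, an estimate of -0.38 (log2, SE 0.1). TTK had 27.26, 33.9 and 30.88 CPM against 18.78, 21.9 and 27.12 CPM, an estimate of -0.44 (log2, SE 0.158). The other checkpoint proteins BUB1B, MAD2L1 and BUB3 had estimates of -0.39, -0.33 and -0.22, and their groups overlapped. MAD2L1 moved to -0.596 when knockdown replicate 3 was left out and to -0.2 when knockdown replicate 2 was, and BUB1B to -0.24 when control replicate 2 was. In the main edgeR fit, genes linked to the anaphase-promoting complex showed the smallest differences of the step. CDC20, the activator of the anaphase-promoting complex, UBE2C, its ubiquitin-conjugating enzyme, and PTTG1, the securin it destroys, had log2 fold changes of -0.04, -0.13 and -0.15. This order changed when a correction for base composition was applied, and the part of base composition in it was not tested. After the trend of each library with GC content was removed, CENPE (-0.085), PTTG1 (-0.102) and BUB3 (-0.106) were nearer to 0 than CDC20 (-0.12) and UBE2C (-0.16). CDC20 reached 442.7, 371.4 and 430.8 CPM in the control and 412.8, 352.7 and 445.6 CPM in the knockdown libraries, which overlapped, and its interval from -0.289 to 0.21 included changes of either sign. Leaving out control replicate 1 turned the estimate to 0.011, and leaving out knockdown replicate 2 turned it to 0.052. PTTG1 has close copies whose reads were not analysed here. No test was made of the difference between these genes and the rest of the step.

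Of the centromere proteins, CENPA, the histone variant that marks the centromere, had a log2 fold change of -0.22. The long kinetochore proteins CENPE and CENPF depended on single libraries. CENPF gave 36.77, 70.18 and 36.85 CPM in the control and 38.24, 39.34 and 20.95 CPM in the knockdown libraries. Its estimate of -0.55 came to -0.16 when control replicate 2 was left out and to -0.31 when knockdown replicate 3 was. CENPE, the member with the fewest reads, was at 2.255, 5.69 and 3.307 CPM against 3.106, 3.907 and 2.217 CPM, and its estimate of -0.29 turned to 0.145 without control replicate 2 and was -0.10 without knockdown replicate 3.

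Cytokinesis genes had a median of -0.28 on the log2 scale. Of the 12, 5 (41.7%) lay below an unadjusted p of 0.05, against 4.32% of all tested genes lower at that threshold. The same 5 were separated between the labels (against 7.7%), namely KIF14, CEP55, ANLN, AURKB and RACGAP1. KIF14 encodes a kinesin of the central spindle that recruits citron kinase. It gave 7.707, 11.53 and 6.902 CPM in the control and 5.333, 3.998 and 3.983 CPM in the knockdown libraries, with no overlap. The estimate of -0.97 was the lowest of all members (log2, SE 0.245, edgeR adjusted p 0.599), with a 95% interval from -1.526 to -0.42. With 1 library left out it spanned -1.126 to -0.714, the latter without control replicate 2. It rested on 115 to 377 reads per library. CEP55, which brings the abscission machinery to the midbody, had 59.57, 81.74 and 65.07 CPM against 45.63, 51.85 and 46.93 CPM, without overlap, and an estimate of -0.52 (log2, SE 0.133). ANLN encodes anillin, a scaffold of the contractile ring. It had 99.78, 145.9 and 117.8 CPM in the control libraries and a narrow range of 87.76, 89.4 and 90.81 CPM in the knockdown libraries, and its log2 fold change was -0.44, with -0.28 when control replicate 2 was left out.

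The chromosomal passenger complex corrects attachments and later guides cleavage. Its members differed unequally in estimate, at -0.33 for the kinase AURKB, -0.27 for survivin (BIRC5), -0.23 for borealin (CDCA8) and -0.05 for the scaffold INCENP. INCENP had 21.4, 25.02 and 23.37 CPM in the control and 21.36, 23.41 and 22.65 CPM in the knockdown libraries, with overlapping groups, and its estimate was 0.007 without control replicate 2. BIRC5 ranged from -0.439 when knockdown replicate 3 was left out to -0.129 when knockdown replicate 2 was, and CDCA8 was -0.133 when control replicate 1 was, so the order of AURKB, BIRC5 and CDCA8 depended on single libraries. The centralspindlin pair RACGAP1 and KIF23 had log2 fold changes of -0.30 and -0.29, and ECT2, the exchange factor they recruit, had -0.28, which was -0.069 without control replicate 2. The kinesin KIF20A had -0.22 with overlapping groups, and -0.019 without control replicate 1. PRC1 bundles the microtubules of the central spindle. Its libraries gave 126.4, 159.7 and 158.7 CPM in the control and 126.3, 138.3 and 118.9 CPM in the knockdown group, an overlapping difference of -0.21 on the log2 scale. Other gene models cover 57.6% of its exons on the same strand and 34.3% on the opposite strand, so its reads are uncertain. Differences between the 4 steps were not tested.

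Levels can be compared between genes only per unit of length, for which the deposited FPKM values (fragments scaled by transcript length and library size) were used. CDC20 was the most abundant member, with a mean of 215.1 FPKM in the control and 207.4 FPKM in the knockdown libraries, followed by UBE2C at 140.2 and 126.5, PTTG1 at 122.7 and 109.5, CCNB1 at 99.99 and 76.70, and PLK1 at 97.19 and 87.86 FPKM. UBE2C (125.72 to 151.03 FPKM in the control libraries) and PTTG1 (118.53 to 126.22) were not apart beyond their spread, nor were CCNB1 (95.61 to 107.09) and PLK1 (94.05 to 101.15). Of these 5 most abundant members, CDC20, PLK1, UBE2C and PTTG1 were, with INCENP, the members with main edgeR estimates nearest to 0, and CCNB1 was the exception at -0.37. CDC20, PLK1 and INCENP were also the members richest in G and C (56.9%, 57.1% and 58.8%). After removal of the trend with GC content, CENPE (-0.085), HMMR (-0.09), PTTG1 (-0.102), BUB3 (-0.106) and ECT2 (-0.111) were nearest to 0. PLK1 was then at -0.216. The part of abundance or base composition in this order was not tested. The least abundant were CENPE at 0.4133 and 0.3333, KIF14 at 1.14 and 0.57, and ASPM at 1.3 and 0.75 FPKM.

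Transcript length and base composition moved with these values. Over the 15122 tested genes with a length for their canonical GENCODE transcript, the deviation of a library from the 6-library mean had a Spearman correlation with length of 0.229 in control replicate 2 and -0.222 in knockdown replicate 3, and between -0.133 and 0.116 in the other libraries. Over the 46 members the values were -0.32, 0.607 and -0.225 in control replicates 1, 2 and 3 and -0.092, 0.412 and -0.44 in knockdown replicates 1, 2 and 3, so positive and negative values occurred under both labels. These correlations run across genes of the same libraries, and genes are not independent replicates. The 23 longer members (3016 to 12716 bases) had a median deviation of 0.411 in control replicate 2, against 0.157 for the 23 shorter ones (715 to 2966 bases), and in knockdown replicate 3 the medians were -0.182 and -0.016. The median log2 fold change was -0.332 for the longer and -0.331 for the shorter members. Of each 23, 7 longer and 12 shorter members were separated downwards between the labels, against 7.7% of all tested genes. Among the 5 longest, MKI67, ASPM, CENPF, CENPE and BUB3, only BUB3 was not lowest in knockdown replicate 3.

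**Figure D4:**
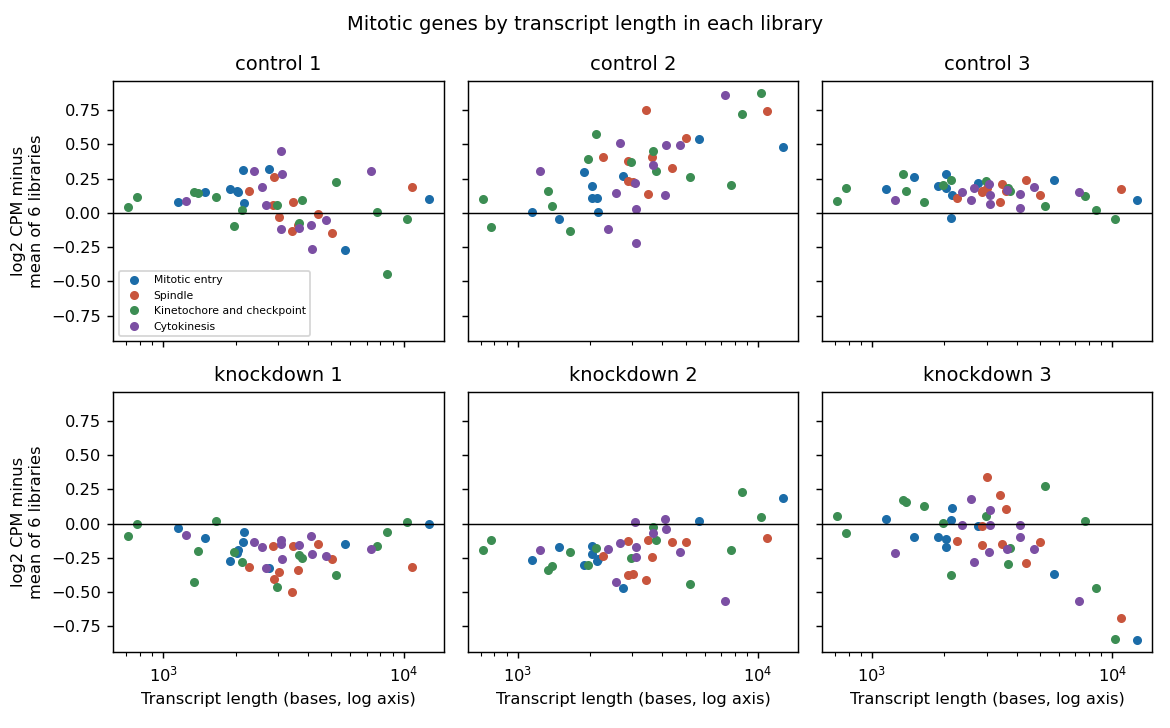
Deviation of log2 CPM from the mean of the 6 libraries (vertical axis) against canonical transcript length in bases (horizontal log axis) for the 46 mitotic genes, 1 panel per library. Long transcripts lie higher than short ones in control replicate 2 and knockdown replicate 2 (Spearman correlations 0.607 and 0.412) and lower in control replicate 1 and knockdown replicate 3 (-0.32 and -0.44).

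The members were also poorer in G and C than other genes, with a median of 41.9% against 48.6%. Over tested genes, the Spearman correlation of the deviation with GC content was 0.108, -0.485 and -0.174 in control replicates 1, 2 and 3 and 0.367, 0.183 and 0.142 in knockdown replicates 1, 2 and 3. All knockdown values thus lay above all control values. Over the members the correlation was 0.251, -0.679 and -0.178 in the control and 0.653, 0.173 and 0.086 in the knockdown replicates, in the same order, and the labels overlapped. After the trend of each library with GC content was removed, all 46 estimates were still below 0, with a median of -0.26. In that fit 17 members were separated (background 6.67% of all tested genes) and 19 were lower at an unadjusted p under 0.05 (background 3.2%). After removal of the trend with length, the median was -0.30 and again all 46 were below 0. There 24 members were separated (background 7.12%) and 25 were lower at an unadjusted p under 0.05 (background 3.91%). Both corrections were added with the data in view, and what part of the difference between labels length or GC content accounts for was not tested further.

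**Figure D5:**
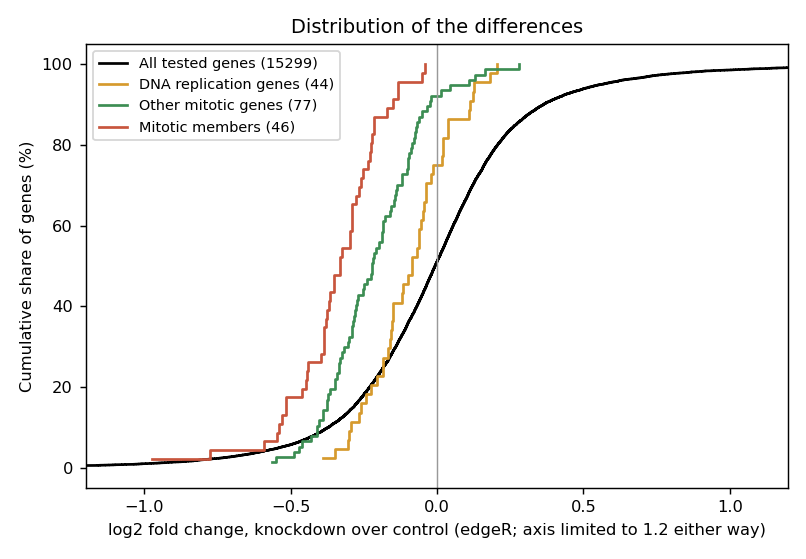
Cumulative share of genes (vertical axis, percent) by edgeR log2 fold change, knockdown over control (horizontal axis, limited to 1.2 either way), for all 15299 tested genes, 44 DNA replication genes, 77 other mitotic genes and the 46 members. The medians are -0.006, -0.084, -0.22 and -0.33 in that order.

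A wider look at cell cycle genes was taken with lists of other mitotic genes, regulators and DNA replication genes. Of 77 other mitotic genes, 71 had estimates below 0 (92.2%, against 51% of all tested genes), with a median of -0.22 on the log2 scale. At an unadjusted p under 0.05, 19 were lower (24.7%, against 4.32% of all tested genes) and 1 higher. Of the 77, 26 were separated downwards (33.8%, against 7.7%) and 2 upwards, and 0 passed the adjusted threshold. Among all 15299 tested genes, 590 were higher at that unadjusted threshold and 1214 were separated upwards. The 3 with the smallest p were CENPI, SHCBP1 and CDCA5. CENPI, of the inner kinetochore, had 16.52, 18.48 and 14.9 CPM in the control and 9.905, 11.99 and 11.91 CPM in the knockdown libraries (log2 fold change -0.56, SE 0.153). SHCBP1, a midbody protein, had 45.18, 49.5 and 44.88 CPM against 36.89, 37.04 and 32.52 CPM. CDCA5, the cohesin protector sororin, had 64.81, 52.5 and 53.29 CPM against 41.23, 41.25 and 46.48 CPM. None of the 3 overlapped between the labels, and the estimates of SHCBP1 and CDCA5 were -0.39 and -0.40. The gene that was higher was the kinetochore gene PMF1 (named after its values were seen), at 48.89 ± 2.06 CPM in the control and 59.36 ± 3.44 CPM in the knockdown libraries (SD, n = 3), which shares exons with a readthrough gene.

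Regulators of the cell cycle formed a separate list. Of 21 regulators, 16 had estimates below 0 (76.2%, against 51% of all tested genes), with a median of -0.18. Of the 21, 4 were separated downwards (19%, against 7.7% of all tested genes). At an unadjusted p under 0.05, 1 was lower (4.76%), which is near the 4.32% over all tested genes. That 1 gene was LIN9, a core MuvB subunit, with 15, 19.09 and 15.18 CPM in the control and 11.84, 11.63 and 13.92 CPM in the knockdown libraries and a log2 fold change of -0.40 (SE 0.157, edgeR adjusted p 0.605). RBBP4, another MuvB subunit, had 264.3, 280 and 256.8 CPM against 222.9, 230.9 and 247.5 CPM, and E2F7, a repressor of the E2F family, had 13.16, 15.79 and 14.38 CPM against 12.72, 11.24 and 10.67 CPM. Both were separated between the labels, with estimates of -0.19 and -0.32. FOXM1 (named after its values were seen) was the fourth to be separated, with 201.2, 200.6 and 186.0 CPM against 174.8, 157.8 and 181.7 CPM, a log2 fold change of -0.19 whose interval ran from -0.402 to 0.017. CDKN1A, the p53 target that stops the cycle, was also named afterwards and overlapped between the labels at 58.87, 90.43 and 96.59 CPM against 105.8, 126.8 and 72.49 CPM, with a log2 fold change of 0.31. The 44 DNA replication genes had a median of -0.084, and 33 of them were below 0 (75%, against 51% of all tested genes). At an unadjusted p under 0.05, 5 were lower (11.4%, against 4.32%) and 1 higher, and 7 were separated downwards (15.9%, against 7.7%) and 2 upwards. Whether mitotic and replication genes differed from each other was not tested.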

How the data were processed

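Raw read counts per gene for 6 libraries were deposited by the authors, without normalization, for 26899 genes, and FPKM values were deposited for 26803 genes, rounded to 2 decimals. The submitters' processing notes name bcl2fastq, TopHat2, edgeR and the genome build GRCh38. For the counting program, its use of strand and the annotation release, nothing is given in the sources used here.

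Members were matched by symbol, and 4 genes of the list of other mitotic genes by identifier. Transcript lengths, GC content and overlaps came from GENCODE release 44 (GRCh38), and promoters from RefSeq (GRCh38.p14). Counts were tested across all 15299 genes left by the edgeR 4.0.16 filter (minimum count 10, total 15) with TMM scaling and the two-sided quasi-likelihood test in R 4.3.3, all 6 libraries in 1 model without covariates, and p-values were adjusted by Benjamini-Hochberg. CPM values are TMM-scaled, and deviations used log2(CPM + 0.5). The edgeR, blocked edgeR, limma-voom and DESeq2 fits were tested on simulated data.

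The members and lists were chosen with earlier results of these data known. Values in every library were given for the 3 members of each step with the smallest unadjusted p, the one with the highest CPM and the one with the highest log2 fold change, for ANXA2, for the 3 genes with the smallest p among other mitotic genes and among regulators, and for near-identical copies. MKI67, TOP2A, ASPM, CENPF, CENPE, FOXM1, CDKN1A and PMF1 were given values after these had been seen. Total counts of 24231267 to 34561675 reads per library set the counting precision. Replicates differed far beyond sampling noise (chi-square per degree of freedom 10.4 to 53.8 within groups, and 19.5 between control replicate 3 and knockdown replicate 2). Alternatives were RLE, upper-quartile and library-size scaling, no filter, DESeq2 1.42.0, limma-voom and limma-trend (limma 3.58.1) on log2(FPKM + 1) and log2(FPKM + 0.1), a replicate block, leaving out each library and, added after the data were examined, GC and length offsets.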

Additional observations from a re-analysis of the deposited data

How the results depend on the processing

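All 46 members kept an estimate below 0 under the 3 other scalings, without the low-count filter, with DESeq2, limma-voom, both FPKM fits, the replicate block and the GC and length offsets. When 1 library was left out, 44 to 46 did, the exceptions being CDC20 without control replicate 1 (0.011) and without knockdown replicate 2 (0.052), and CENPE and INCENP (0.007) without control replicate 2. With 1 library left out, CDC20 spanned -0.115 to 0.052 and INCENP -0.105 to 0.007. The GC and length offsets were chosen after seeing the data. The members' median spanned -0.403 to -0.257 over 17 alternatives and -0.403 to -0.259 when 1 library was left out. The median of the entry genes moved to -0.247 with the GC offset and -0.303 with the length offset, and that of the kinetochore genes to -0.206 with the GC offset. With 1 library left out the entry median spanned -0.371 to -0.301.

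The number of members separated between the labels was 17 to 24 under the other alternatives, where the background was 5.2% to 8.94% of genes. It was 19 to 33 when 1 library was left out, with 29 without control replicate 1 (background 15.7%) and 33 without knockdown replicate 3 (14.8%). Fewer libraries make separation easier. Members lower at an unadjusted p under 0.05 numbered 16 to 31, with 16 to 28 when 1 library was left out. The background also varied. It was 1.56% of genes without knockdown replicate 1 (16 members), 4.03% without the filter (31 members) and 4.51% without knockdown replicate 3 (28 members). Without control replicate 1 it was highest, at 6.49% (27 members).

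Over all genes, 0 passed an adjusted p of 0.05 in edgeR (1251 unadjusted), 165 without the low-count filter, 31 with DESeq2, and 0 to 4 with 1 library left out, the 4 without knockdown replicate 2. Without the filter 6 members passed (ASPM, CCNA2, CENPF, CEP55, KIF14 and NUSAP1; adjusted p from 0.0142), in a fit whose median total degrees of freedom were 107600 against 9.234. DESeq2 called 0 members, the smallest adjusted p being 0.103. The ANXA2 estimate spanned -0.113 to -0.017.

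Replicate numbers did not pair the libraries, since same-numbered libraries had correlated deviations of -0.088, 0.168 and -0.259. With the replicate block, 0 genes passed the adjusted threshold, as in the main fit, and the members' median was -0.333. At an unadjusted p under 0.05, 23 members were lower (background 3.58%), against 21 in the main fit (background 4.32%). CENPE (55 to 186 reads) and KIF14 (115 to 377 reads) had the fewest reads of the members. The KIF14 estimate was -0.437 in the limma-trend fit on log2(FPKM + 1) and -0.865 in that on log2(FPKM + 0.1).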
